A study of Mus musculus with 4 samples.

Results

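The Siglech+ Irf8+ cells described here were single-cell barcodes with at least 1 unique molecular identifier (UMI, a tag that marks 1 captured transcript) for Siglech and at least 1 for Irf8, no UMI for Ebf1 and at most 1 for Cd79a. They numbered 1532 of 31153 kept barcodes: 732 in fetal liver at embryonic stage E13.5, 643 in fetal liver at E14.5, 150 in the embryonic periphery at E13.5 and 7 in the periphery at E14.5. The study profiled C57BL/6J mouse embryos by droplet single-cell RNA sequencing, with lymphoid tissue inducer (LTi) cells as the target of the sort. All 4 groups shared 1 preparation: CD45+ cells were enriched on magnetic beads, and living cells with the surface phenotype CD45+ F4/80- IL7Ra+ were then sorted. Each group was 1 library, and the number of embryos behind a library is not given in the sources used here, so every interval below covers counting error only and no p-value could be formed. The periphery was captured with the 10x 3' version 2 kit and fetal liver with version 3, so tissue and kit cannot be told apart. Stages were therefore compared within a tissue, and tissues are given side by side.

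Plasmacytoid dendritic cells (pDCs) are the immune cells best known for making large amounts of type I interferon after their endosomal Toll-like receptors meet viral nucleic acid. They arise from Flt3+ progenitors of lymphoid and myeloid origin in bone marrow and, before birth, in fetal liver, and their identity depends on the E protein Tcf4 with partners such as Spib, Runx2 and Irf8, against the inhibitor Id2. Siglech is a sialic acid binding lectin that signals through the adaptor DAP12 and marks mouse pDCs, and Ly6d is a small surface protein on lymphoid progenitors committed to the B cell or pDC path. Ebf1 and Cd79a, which the rule limits, are a transcription factor and a receptor chain of the B cell lineage.

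The stretch of DNA before the start site is shown for 3 genes that the results turn on: the rule gene Siglech, the transcription factor gene Spib, and Bst2, which encodes the pDC surface protein tetherin. Each runs 5′ to 3′ on the gene's own strand and is 250 bases long (RefSeq, GRCm38.p6). In Siglech and Spib the capitals mark CANNTG, the E-box letters that E proteins such as Tcf4 bind, and in Bst2 they mark 2 copies of GAAA with any 2 bases between them, the letters of an interferon response element.
Siglech, chr7:55767934-55768183, plus strand: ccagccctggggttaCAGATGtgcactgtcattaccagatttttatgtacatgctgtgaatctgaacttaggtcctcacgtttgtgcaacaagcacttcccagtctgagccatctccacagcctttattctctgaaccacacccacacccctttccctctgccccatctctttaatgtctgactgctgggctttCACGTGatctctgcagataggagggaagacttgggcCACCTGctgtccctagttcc
Spib, chr7:44532072-44532321, minus strand: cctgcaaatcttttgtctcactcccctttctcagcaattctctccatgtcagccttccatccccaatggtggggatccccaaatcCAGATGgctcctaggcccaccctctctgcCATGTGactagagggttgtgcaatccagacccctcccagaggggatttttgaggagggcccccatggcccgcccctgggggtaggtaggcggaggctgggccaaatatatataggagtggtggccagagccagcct
Bst2, chr8:71537473-71537722, minus strand: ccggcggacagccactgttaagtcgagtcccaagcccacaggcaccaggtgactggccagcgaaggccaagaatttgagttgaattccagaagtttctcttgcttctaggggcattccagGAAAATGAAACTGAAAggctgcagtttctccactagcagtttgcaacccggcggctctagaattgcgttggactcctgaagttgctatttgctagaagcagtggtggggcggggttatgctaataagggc
CANNTG reads the same on both strands and was found in 66.2% of all 32851 promoter windows of this length. Of the 34 genes of the rule and of the pDC surface and effector list, 26 could be matched, with 34 windows between them, since a gene can have several. CANNTG was in 24 of these windows (70.6%). CACCTG, an E-box form searched on both strands and contained in CANNTG, was in 17.2% of all windows and in 9 of the 34 (26.5%), Siglech among them. The paired GAAA, searched on both strands, was in 2.98% of all windows and in 5 of the 34 (14.7%), which belong to Bst2, Cd300c, Ebf1 and Rnase6. In Bst2 it occurred at 2 places that share a GAAA. These are letter matches and were not tested for binding.

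The genes of the rule lie at chr7:55768178-55778925 (Siglech, plus strand), chr8:120736358-120756694 (Irf8, plus), chr11:44617317-45008091 (Ebf1, plus) and chr7:24897381-24902197 (Cd79a, plus) in mm10, and the marker Ly6d lies at chr15:74762056-74763620 (minus), by the GENCODE M21 gene models. The libraries held between 44599592 and 212034840 UMIs in total, and 4305 to 11702 barcodes per library were kept with at least 500 genes detected and at most 10% of UMIs from mitochondrial genes. The members had a median of 20130 UMIs in fetal liver at E13.5, 14100 in fetal liver at E14.5, 13594 in the periphery at E13.5 and 10615 in the periphery at E14.5. No member barcode was shared between libraries. The doublet caller Scrublet marked 39 members (5.33%) in fetal liver at E13.5, 27 (4.20%) at E14.5, 13 (8.67%) in the periphery at E13.5 and 0 of 7 at E14.5, and these stayed in the main values.

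Members made up 6.88% (95% interval 6.41 to 7.38) of the kept cells of the earlier fetal liver library and 5.49% (5.09 to 5.92) of the later. In the periphery the share was 3.48% (2.96 to 4.08) in the earlier library and 0.155% (0.0625 to 0.320) in the later. The order of the fetal liver stages turned with depth: with each cell thinned to 5000 UMIs the earlier share was 3.22% and the later 4.66%, and with at least 2 Siglech UMIs required it was 3.70% and 4.21%, so no order is read from it. The shares fix no count of cells in an embryo, because each was taken within a sorted gate whose other members also differed between libraries.

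**Figure D1:**
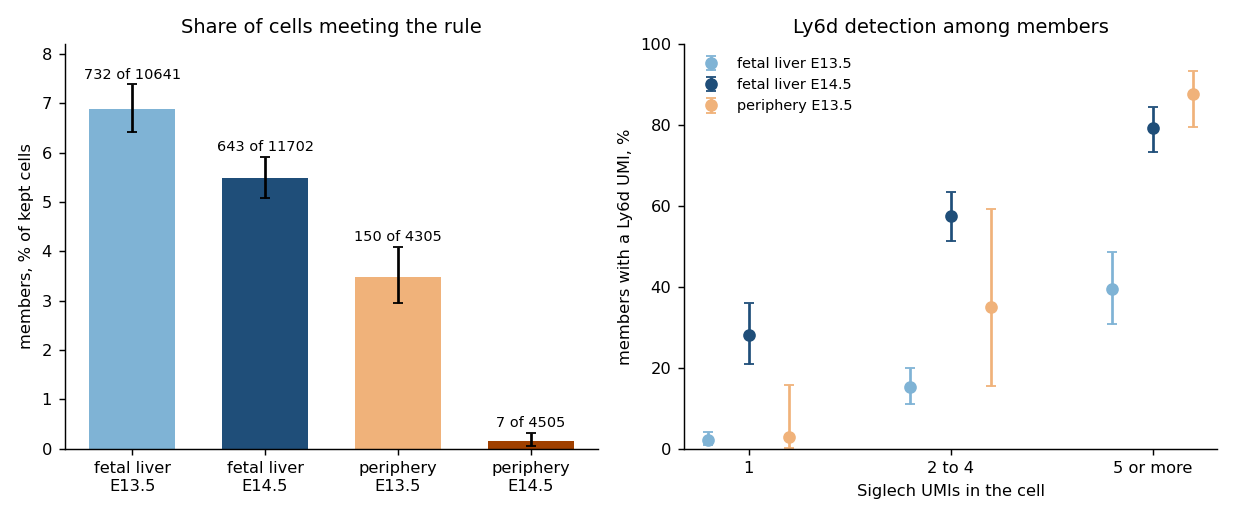
Left, the share of kept cells that met the rule in each library (bars, %, with exact 95% binomial intervals and the cell numbers above). Right, the share of members with a Ly6d UMI by the number of Siglech UMIs in the cell (points, %, same intervals); in each of the 3 libraries drawn it is lowest at 1 Siglech UMI and highest at 5 or more, reaching 39.5%, 79.3% and 87.6%.

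The members were chosen by the raw UMIs of Siglech, Irf8, Ebf1 and Cd79a, so these genes are given as a description. A member had a median of 2 Siglech UMIs in fetal liver at E13.5, 3 at E14.5, 7 in the periphery at E13.5 and 2 in the periphery at E14.5, and the highest cell had 24. Irf8, the interferon regulatory factor needed for dendritic cell development, had medians of 9, 15, 22 and 9 UMIs. Many members stood just inside the Siglech limit: 338 of 732 (46.2%) in fetal liver at E13.5 held exactly 1 Siglech UMI, against 150 (23.3%) at E14.5, 33 (22%) in the periphery at E13.5 and 3 of 7 at E14.5. Just outside stood 2814, 1165, 961 and 983 cells, in the same order, that had no Siglech UMI and met the other limits, and 267, 55, 67 and 6 that had no Irf8 UMI and met the others. Cells that missed the rule by 1 Ebf1 UMI numbered 129, 131, 12 and 0, and cells that missed it by a second Cd79a UMI numbered 7, 21, 4 and 0.

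Cells that should lack Siglech set the background for a single UMI. Mast and basophil cells (10 or more UMIs of Mcpt8 and Cpa3) held a Siglech UMI in 4.33% of cells in fetal liver at E13.5, 5.12% at E14.5, 1.74% in the periphery at E13.5 and 0% at E14.5, and after thinning to 5000 UMIs in 0.866%, 2.17%, 0% and 0%. The whole rule was met by 4 of 231 mast and basophil cells (1.73%), 18 of 859 (2.10%), 1 of 115 (0.870%) and 0 of 103. Of the cells with a Flt3 UMI, 7.44%, 7.71%, 9.70% and 0.990% were members. Applied to the 3546, 1808, 1111 and 990 cells that met the other limits of the rule, the unthinned mast cell shares give 154, 92.6, 19.3 and 0 cells with a Siglech UMI, beside 338, 150, 33 and 3 members with exactly 1. These counts are not matched for depth. Median UMIs were 18500, 12659, 16724 and 13445 in the mast and basophil cells. In the cells with no Siglech UMI that met the other limits they were 21586, 20295, 11529 and 9516. Free RNA and cells caught together were not removed, so a single member with 1 Siglech UMI cannot be told from background.

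The pDC transcripts Tcf4, Bst2 and Cox6a2 and the progenitor receptor transcripts Flt3 and Il7r were detected in most members of fetal liver and of the periphery at E13.5. Tcf4, Bst2 and Cox6a2 were also detected in Siglech-negative cells with a Flt3 and an Il7r UMI under the same Ebf1 and Cd79a limits. The shares of those cells are given second. Tcf4, the E protein that directs pDC fate, was detected in 90.7% against 81.7% in fetal liver at E13.5, 96.1% against 80.4% at E14.5 and 85.3% against 43.4% in the periphery at E13.5. After thinning to 5000 UMIs these Tcf4 shares were 58.1% against 42.9%, 77.9% against 45.8% and 61.1% against 18.8%. Bst2 was detected in 89.6% against 78.8%, 98.4% against 89.1% and 96.7% against 73.7%. Cox6a2, a cytochrome oxidase subunit gene known as a pDC marker, was detected in 78.7% against 49.2%, 90.2% against 63.1% and 79.3% against 18.6%. Among the members the cytokine receptor genes of early progenitors were detected as well: Flt3 in 93.2%, 85.4% and 64.0%, and Il7r in 88.9%, 87.9% and 79.3%. The sort had required surface IL7Ra, so Il7r detection is no separate sign of a progenitor state. Cd34, a stem and progenitor surface glycoprotein, was detected in 87.0%, 49.3% and 34.0% of members, against 97.1%, 91.6% and 68.7% of the Flt3+ Il7r+ cells.

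Of the genes known from mature pDCs, Klk1, Tlr7, Tlr9 and the Ifna genes were scarce, while Bst2 and Cox6a2 were detected in most members, as given above. Levels are given in CPM, the usual depth-scaled unit, from the UMIs of a gene summed over the cells of a group and divided by all UMIs of those cells, with exact 95% Poisson intervals in brackets where 2 groups are set against each other. Klk1, a kallikrein gene known from mature pDCs, stood at 0.123, 6.36 and 4.32 CPM in fetal liver at E13.5, fetal liver at E14.5 and the periphery at E13.5. Tlr7, the endosomal receptor for single-stranded RNA, stood at 13.9, 13.7 and 7.78 CPM, while Tlr9, the receptor for unmethylated DNA, had 0 UMIs at fetal liver E13.5 and in the periphery and 1 at fetal liver E14.5. The 5 Ifna genes measured had no UMI in any member of these libraries, which allows up to 0.227, 0.361 and 1.59 CPM for each. The whole interferon gene list, which adds Ifnb1, Ifnl2, Ifnl3 and Ifng, summed to 2.27, 0.293 and 1.73 CPM. None of that sum came from the Ifna genes, and it does not stand for type I interferon alone. Unc93b1, the chaperone that carries these receptors to endosomes, was detected in most members at 229, 328 and 270 CPM.

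Ly6d, the third marker of the label, played no part in the rule and differed widely between libraries. It was detected in 97 of 732 members (13.3%, 10.9 to 15.9) in fetal liver at E13.5, 374 of 643 (58.2%, 54.2 to 62.0) at E14.5, 93 of 150 (62.0%, 53.7 to 69.8) in the periphery at E13.5 and 5 of 7 (71.4%, 29.0 to 96.3) in the periphery at E14.5. The intervals of the fetal liver stages lay far apart, and thinning to 5000 UMIs left 8.58% (6.64 to 10.9) and 50.0% (46.0 to 54.0). In fetal liver its level was 100 CPM (95.2 to 105) at E13.5, against 1283 (1261 to 1305) at E14.5, and 2597 (2532 to 2664) in the periphery at E13.5. The label therefore went against its own marker in fetal liver at E13.5, where 635 members held no Ly6d UMI, and the cells are called by their rule here. The members were spread over the clusters in different shares at the 2 stages: cluster FL6 held 143 (19.5%) of those at E13.5 and 409 (63.6%) of those at E14.5. Within FL6 Ly6d was detected in 48.3% (39.8 to 56.8) and 80.9% (76.8 to 84.6), and outside it in 4.75% (3.18 to 6.80) and 18.4% (13.6 to 23.9), but Ly6d was among the genes clustered, so these are not independent of it.

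The other cells of each library give the background of Ly6d detection. Among all other kept cells it was 3.55%, 28.4%, 7.22% and 5.05% in the order above, and after thinning 2.12%, 16.2%, 4.31% and 2.74%. In mast and basophil cells, which should lack it, it was 0.866%, 13.3%, 6.09% and 1.94% (median depth 18500, 12659, 16724 and 13445 UMIs), and thinned 0.433%, 6.15%, 0.870% and 1.09%. Members stood above these values in every library. The Siglech+ Irf8+ cells that Ebf1 or Cd79a kept out of the rule held it in 19.7% (16.5 to 23.3), 66.7% (63.1 to 70.2), 50.6% (39.6 to 61.5) and 62.5% (24.5 to 91.5). In both fetal liver libraries these shares lay above those of the members with separate intervals, and in the periphery the intervals overlapped. Median depth of the kept-out cells was 20024 UMIs at fetal liver E13.5 and 20620 at E14.5, against 20130 and 14100 for members.

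Within each library Ly6d followed the number of Siglech UMIs in a cell, as the plot of shares shows. In fetal liver at E13.5 it was detected in 2.07% of the 338 members with 1 Siglech UMI, 15.2% of the 270 with 2 to 4 and 39.5% of the 124 with 5 or more. At E14.5 these shares were 28.0% of 150, 57.6% of 271 and 79.3% of 222, and in the periphery at E13.5 they were 3.03% of 33, 35.0% of 20 and 87.6% of 97. The cells with 5 or more Siglech UMIs were not the deeper ones: their median depth was 17802, 12824 and 12795 UMIs, against 20799, 18594 and 18283 for members with 1. Members just inside the Siglech limit thus stood closer in Ly6d to the cells just outside it, which held Ly6d in 1.14%, 11.0% and 2.39%.

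To place the members among the early lymphoid cells of the same library, they were set beside the Siglech-negative Flt3+ Il7r+ cells (3654 cells in fetal liver at E13.5, 1188 at E14.5 and 419 in the periphery at E13.5). A gene was called where the pooled levels differed at least 2-fold after adding 5 CPM and centring on the median gene, with 95% intervals that did not overlap. In fetal liver at E13.5, 44 of 7688 measured genes were called higher (0.572%) and 22 lower (0.286%). At E14.5, 201 of 7830 were higher (2.57%) and 54 lower (0.690%), and in the periphery 340 of 6860 were higher (4.96%) and 168 lower (2.45%). Since Siglech and Irf8 chose the cells, these are descriptions with no replicate check. The counts at E13.5 in fetal liver moved with the choice of members: 92 higher and 35 lower with at least 2 Siglech UMIs, and 235 higher and 122 lower over the members of FL6 alone. At E14.5 FL6 gave 393 higher and 194 lower, and at least 2 Siglech UMIs gave 89 lower. In the periphery 276 were lower with at least 2 Siglech UMIs and 388 over the members of cluster P10, which held 102 of the 150. Against all other kept cells of the library, 43 of 7729 genes were higher (0.556%) and 42 lower (0.543%), 230 of 7849 higher (2.93%) and 157 lower (2.0%), and 355 of 6897 higher (5.15%) and 278 lower (4.03%).

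Members held more of the pDC surface and effector transcripts than the Flt3+ Il7r+ cells in all 3 libraries. The Siglech+ Irf8+ cells that Ebf1 or Cd79a kept out of the rule were not compared with members for these genes. These transcripts are therefore not shown to be particular to members. In the periphery at E14.5, 8 such kept-out cells held Cox6a2 at 853 CPM and Bst2 at 378, and the 7 members held 715 and 562. The list of these transcripts was chosen with earlier results of these data known, so its counts are a description and no independent support. Of the genes of this list that could be measured, 7 of 21 were called higher and 0 lower in fetal liver at E13.5 (median log2 difference 0.64), 15 of 24 and 0 at E14.5 (1.96), and 15 of 24 and 1 in the periphery at E13.5 (2.16), against a median of about 0 over all genes by construction. Atp1b1, a sodium pump subunit, stood at 90.5 CPM (85.9 to 95.2) in members and 11.0 (10.3 to 11.7) in the Flt3+ Il7r+ cells in fetal liver at E13.5, at 303 and 21.6 at E14.5 and at 162 and 1.83 in the periphery. It was higher in members each time, by 2.59, 3.54 and 4.65 on the log2 scale. Lair1, an inhibitory collagen receptor, was likewise higher, with 27.9 against 2.51 CPM, 73.8 against 3.04 and 105 against 5.17. Cox6a2 was higher at 191 against 59.0, 436 against 94.4 and 739 against 32 CPM.

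Other genes of the list were called in some or all of the libraries. Bst2 was higher at E14.5 in fetal liver (584 against 156 CPM) and in the periphery (1157 against 155), while in fetal liver at E13.5 its 156 against 97.3 CPM was not called (0.67). The protease gene Ctsl was higher in all 3, at 90.3 against 35.7, 413 against 36.7 and 577 against 71.4 CPM, and the lysosomal growth factor gene Grn was too, at 41.1 against 14.1, 176 against 16.2 and 490 against 36.5. Upb1, an enzyme of pyrimidine breakdown, was called at E14.5 (44.9 against 1.04) and in the periphery (121 against 2.0) and was below the level limit at E13.5 in fetal liver (7.0 against 0.869). Ccr9, the gut and thymus homing receptor found on pDCs and on their lymphoid precursors, was not called in fetal liver at E14.5 (100 against 61.3 CPM, 0.68) or in the periphery (118 against 90.6, 0.40). Lag3, an inhibitory receptor, was the 1 gene called lower, in the periphery (18.1 against 43.4 CPM, -1.02).

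Among the transcription factors of pDCs, the runt factor gene Runx2 was higher in every comparison, at 121 against 35.9 CPM in fetal liver at E13.5, 217 against 49.1 at E14.5 and 76.0 against 9.17 in the periphery. Spib, an Ets family partner of Tcf4, was at 6.88 against 0.655 CPM at E13.5, below the level limit, and was higher at 38.9 against 1.44 at E14.5 and 78.6 against 1.5 in the periphery. Tcf4 stood at 208 against 121 CPM at E13.5 (0.77, not called), 384 against 134 at E14.5 (1.49) and 197 against 48.5 in the periphery (1.96). Zeb2, a repressor needed for pDC development, was called at the same 2 places as Tcf4, at 165 against 72.8 and 90.7 against 17.5. In all, 1 of 13 factors was higher at E13.5, 4 of 14 at E14.5 and 4 of 13 in the periphery, and Nfil3, a basic leucine zipper factor needed for innate lymphoid and cDC1 cells, was lower in both fetal liver libraries (55.3 against 121 and 40.5 against 133 CPM). Irf7, which drives interferon production, was not called in any of them.

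The Id proteins, which bind E proteins and block them from DNA, did not move as 1 group. Id3 was higher in members in fetal liver, at 183 against 55.7 CPM at E13.5 and 222 against 44.3 at E14.5, and Id1 was higher at E13.5 (154 against 70.6). Id2, which holds back pDC fate and is used by innate lymphoid and conventional dendritic cells, was lower in the periphery (140 against 335 CPM, -1.19) and was not called at fetal liver E14.5 (118 against 204, -0.75). The E protein gene Tcf3 was level, at 217 against 228 and 244 against 256 CPM in fetal liver.

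**Figure D2:**
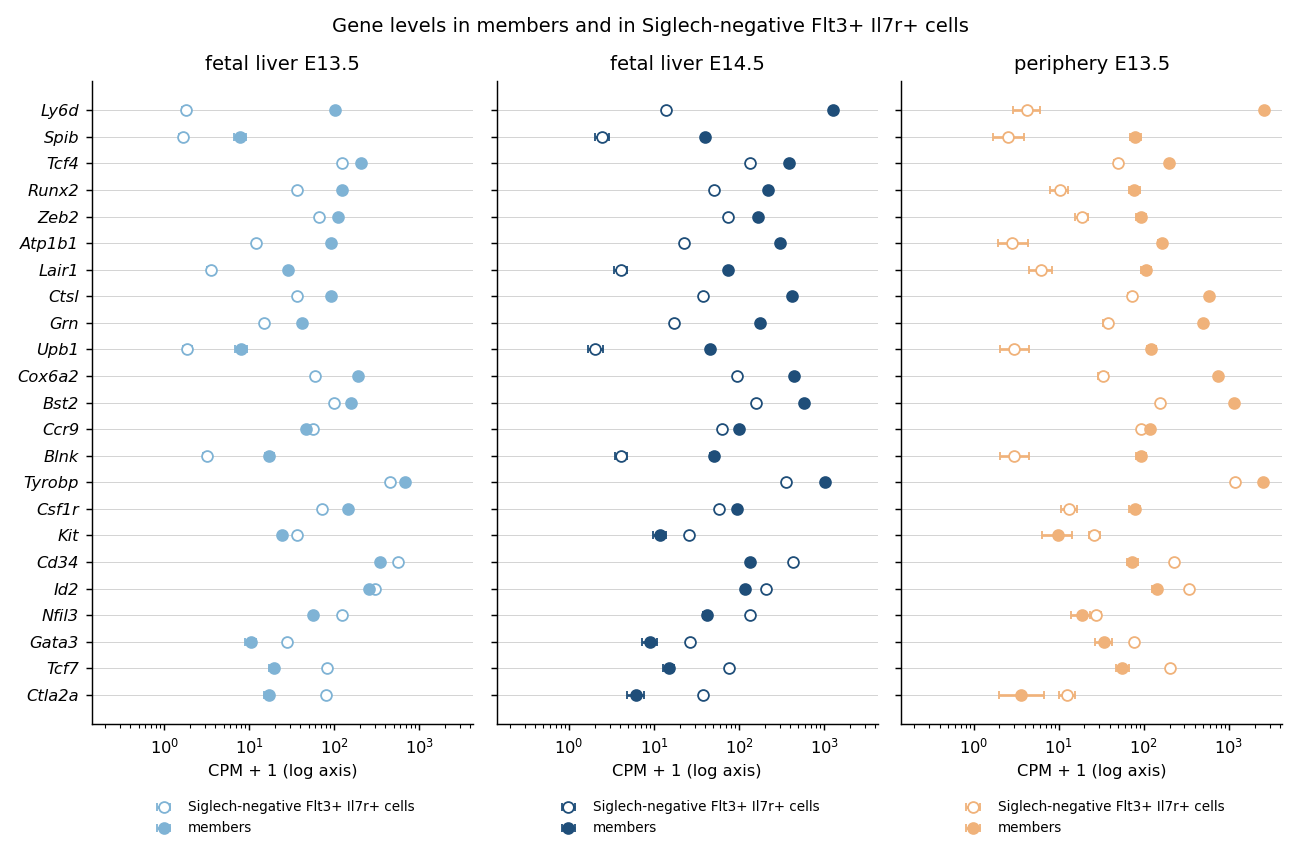
Level of 23 named genes in members (filled points) and in Siglech-negative Flt3+ Il7r+ cells of the same library (open points), as CPM of summed UMIs plus 1 on a log axis, with exact 95% Poisson intervals. The points lie farthest apart for Ly6d, which stood at 100 against 0.819 CPM, 1283 against 13 and 2597 against 3.17 CPM.

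Among the genes of DAP12 and receptor-proximal signalling, Blnk, a linker for antigen receptors that pDCs share with B cells, was higher in each library at 16.3 against 2.17, 49.3 against 3.08 and 92.0 against 2.0 CPM. Tyrobp, which encodes DAP12 itself, was at 684 CPM in members in fetal liver at E13.5, where it was not called, and was higher at E14.5 (1030 against 355) and in the periphery (2481 against 1171). In the nucleic acid sensing list, Unc93b1 was higher at E14.5 (328 against 137 CPM) and in the periphery (270 against 63.9), and no other gene of the 8 to 10 measured was called. Of the interferon response genes, Ifi27l2a was higher at E14.5 (114 against 12.7) and in the periphery (171 against 48.0), and Rtp4 was lower in fetal liver at both stages (9.58 against 26.3 and 6.06 against 21.4). Isg15 was not called in any of the 3.

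Of the measured genes of stem and multipotent cells, 5 of 7 were lower in fetal liver at E13.5 (median -1.15), 3 of 7 at E14.5 (-0.91) and 2 of 3 in the periphery (-1.08), with 0 higher in each. Ctla2a, a cathepsin inhibitor gene, was at 16.0 against 78.1 CPM and 5.09 against 36.5 in fetal liver, and Hlf, a stem cell transcription factor, at 2.40 against 11.5 at E13.5. Cd34 was at 346 against 567 CPM at E13.5 (-0.69, not called) and was lower at E14.5 (135 against 431) and in the periphery (72.2 against 223). Kit, the stem cell factor receptor, was lower in the periphery (8.64 against 25.2 CPM) and not called in fetal liver, and Il2rg, the common cytokine receptor chain, was lower in the periphery as well (58.8 against 165). Csf1r, the macrophage colony-stimulating factor receptor, which early dendritic progenitors also carry, was higher in the periphery (77.3 against 12.3 CPM) beside the macrophage transcripts described below.

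Lymphoid priming genes went both ways. Rag1 (0.737, 0.685 and 1.3 CPM in members) was scarce in each library and Dntt had no UMI in any member (upper limits 0.227, 0.361 and 1.59 CPM); the products of both act in antigen receptor rearrangement. Rag2 was lower at E14.5 (11.3 CPM in members, log2 difference -1.09) together with Lax1, an adaptor gene (4.6 against 21.8). Ighm, the immunoglobulin mu heavy chain gene, whose unrearranged transcripts appear in early lymphoid cells, was detected in 97.4%, 98.9% and 95.3% of members and was higher at E14.5 (710 against 335 CPM) and in the periphery (704 against 140). The kappa light chain gene Igkc was higher at E14.5 (49.0 against 0.640 CPM) and in the periphery (349 against 1.33).

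Of the innate lymphoid and LTi genes, 15 of the 15 measured were lower in members in the periphery (median -1.61), among them Ltb, a lymphotoxin chain (180 against 626 CPM). In fetal liver 2 of 6 were lower at E13.5 and 4 of 6 at E14.5. Tcf7, a factor shared by T and innate lymphoid progenitors, was at 18.4 against 82.1 CPM, 13.8 against 75.3 and 54.9 against 203, and Gata3 at 9.46 against 26.5, 7.92 against 25.6 and 32.8 against 76.4, and both genes were lower in every library tested.

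Genes of conventional dendritic cells were mixed. The integrin chain gene Itgax (CD11c) was higher at E14.5 (35.3 against 3.16 CPM) and in the periphery (19.4 against 1.5), as were Nrp1 (55.6 against 11.4 and 69.6 against 24.7) and the adhesion gene Cadm1 (13 against 0.640 and 21.6 against 0.834). Batf3, the factor of cDC1 cells, was lower in the periphery (19.4 against 89.2 CPM). In that library 1959 of 4305 kept cells (45.5%) were Siglech-negative with a Batf3 and an Id2 UMI, under the same Ebf1 and Cd79a limits. The lower Batf3 is therefore not read as the lack of a cDC1 trait. The cDC markers Xcr1 (0.553, 0 and 0 CPM), Clec9a (0.123, 0 and 0.864) and Zbtb46 (1.54, 1.27 and 2.16) were scarce in members. Of the homing receptors, Selplg (the selectin ligand PSGL-1) was higher at E14.5 (413 against 156 CPM) and in the periphery (546 against 245). Secretory pathway genes showed Nucb2, a calcium-binding Golgi protein, higher at E14.5 (58.8 against 12 CPM) and in the periphery (137 against 10.0), with Xbp1, the factor of secretory cells, higher in the periphery (149 against 48.9). Of 18 S phase and 18 G2 and M phase genes, 0 were called in any library, with medians between 0.08 and 0.42.

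Members with and without a Ly6d UMI were then compared within each library (97 and 635 cells, 374 and 269, and 93 and 57), since Ly6d played no part in choosing them. Members with Ly6d carried more of the pDC transcripts in all 3 libraries. The gene lists were chosen with earlier results of these data known, so counts over them are a description. In fetal liver at E13.5, 114 of 7879 genes were called higher (1.45%) and 18 lower (0.228%); at E14.5, 157 of 7836 were higher (2.0%) and 7 lower (0.0893%); and in the periphery 260 of 6916 were higher (3.76%) and 245 lower (3.54%). On the pDC surface and effector list the counts were 14 of 24, 20 of 26 and 21 of 24 higher, with medians of 1.16, 1.56 and 1.67, and Ly6a was the 1 gene lower, in the periphery (-1.05, and 0.51 with at least 2 Siglech UMIs). With at least 2 Siglech UMIs the periphery counts were 140 higher and 128 lower, and within FL6 they were 49 higher at E13.5 and 94 higher and 13 lower at E14.5. The Ly6d-negative members were the deeper cells, with median UMIs of 20789 against 13932, 18586 against 11144 and 17393 against 12532.

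**Figure D3:**
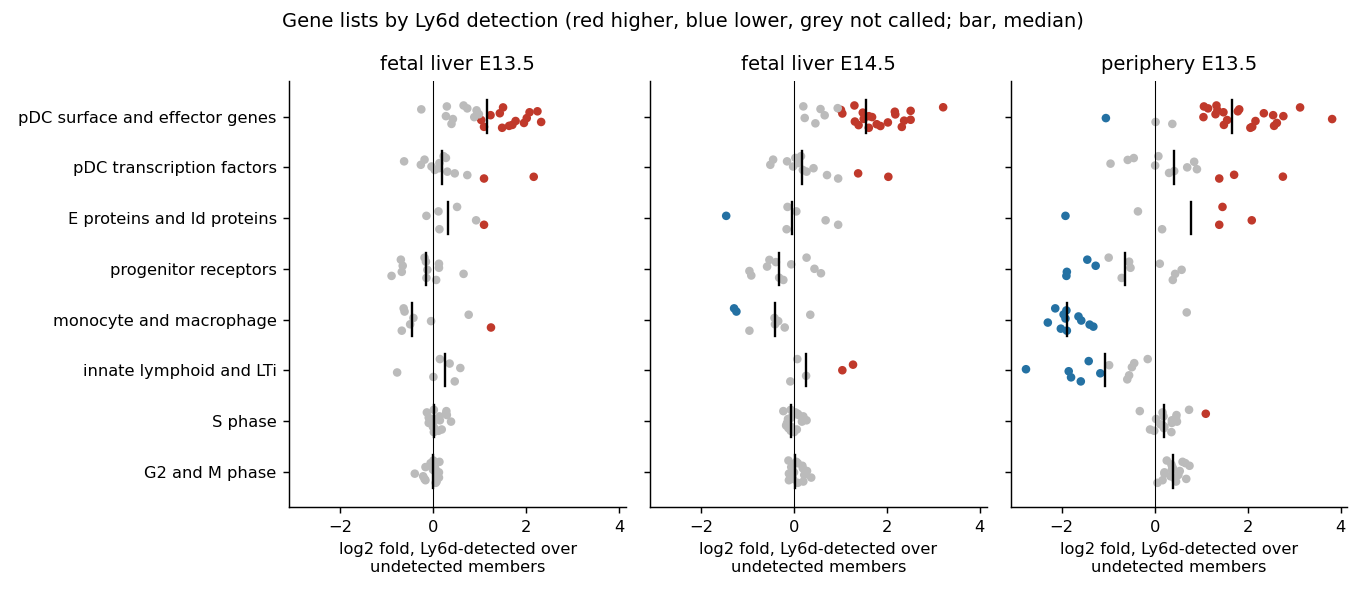
Each point is the log2 difference of 1 measured gene between members with and without a Ly6d UMI, for 8 gene lists in 3 libraries (red called higher, blue called lower, grey not called, with the list's median as a bar). The pDC surface and effector genes lie to the right in every library, with medians of 1.16, 1.56 and 1.67, and the S phase and G2 and M phase genes lie near 0 in fetal liver.

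Bst2 was at 378 CPM in Ly6d-positive and 131 in Ly6d-negative members in fetal liver at E13.5, 909 against 290 at E14.5 and 1776 and 420 in the periphery. Cox6a2 was at 496 and 156, 650 and 242, and 1195 and 197 CPM, and Ctsl at 322 and 64.0, 734 and 123, and 860 and 240. All 3 genes were called higher with Ly6d in each library. Ccr9, which did not part members from Flt3+ Il7r+ cells, was higher with Ly6d, at 90.8 against 39.7, 177 against 30.9 and 184 against 38.8 CPM. Ly6c2, a surface antigen of maturing pDCs and monocytes, was at 14.4 against 0.684, 38.9 against 2.61 and 119 against 3.79, and the phospholipid transfer protein gene Pltp at 14.4 against 1.85, 57.4 against 1.68 and 63.6 against 2.84; both were higher with Ly6d in each library.

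Spib was the transcription factor called in every library, at 34.3 against 3.76 CPM in fetal liver at E13.5, 67.9 against 12.7 at E14.5 and 132 against 15.1 in the periphery (log2 differences 2.16, 2.03 and 2.76). Tcf4 was higher at E13.5 (402 against 185 CPM) and in the periphery (277 against 102), and its 518 against 262 at E14.5 fell just short of the limit (0.95). Runx2 was higher in the periphery (114 against 31.2) and Irf7 at E14.5 (34.2 against 9.87). Id1 was lower with Ly6d at E14.5 (62.4 against 178 CPM) and in the periphery (1.59 against 19.9) and level at E13.5 (141 against 156). Hmga2, a chromatin protein of fetal stem cells, was lower with Ly6d in all 3 libraries, at 209 against 549, 131 against 345 and 17.5 against 78.6 CPM.

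Transcripts shared with B cells went with Ly6d too, although the rule removed cells with Ebf1. Igkc was at 62.6 against 2.19 CPM, 94.3 against 8.01 and 595 against 55.9, Blnk at 60.2 against 11.4, 88.5 against 13.8 and 146 against 27.5, and the Fc receptor-like gene Fcrla at 19.2 against 2.87, 50.4 against 5.22 and 112 against 7.57. Each was called higher in each library. The homing receptor gene Selplg was called higher with Ly6d in each library as well. Cd8a, found on part of the mature pDCs, was at 45.3 CPM in Ly6d-positive members of the periphery with 0 UMIs in the Ly6d-negative ones. Jchain, the joining chain of secreted antibodies, was higher at E13.5 (96.2 against 8.07 CPM), where 60.6% of its UMIs came from 1 cell.

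Nucb2 was the secretory pathway gene higher with Ly6d in each library, at 44.5 against 18.3 CPM in fetal liver at E13.5, 89.8 against 30.7 at E14.5 and 219 against 40.7 in the periphery, where Herpud1 and Xbp1 were higher as well. Interferon response genes parted by library: Ifi27l2a was higher with Ly6d in fetal liver at both stages (62.0 against 12.7 and 195 against 41.2 CPM), Isg15 (36.9 against 13.2) and Usp18 were higher at E14.5, and Rtp4 and Xaf1 were lower in the periphery. On the innate lymphoid and LTi list, 6 of 12 genes were lower with Ly6d in the periphery, among them Il22 (25.4 against 202 CPM), while Tcf7 and Gata3 were higher at fetal liver E14.5. Of the conventional dendritic genes, Itgax was higher in each library (39.7 against 11.0, 60.3 against 12.7 and 28.6 against 8.52 CPM). Batf3, common among the Siglech-negative cells of the periphery, was lower there.

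The cytokine receptor genes of progenitors did not part with Ly6d in fetal liver. Flt3 stood at 198 against 188 CPM at E13.5, 168 against 195 at E14.5 and 94.6 against 71.0 in the periphery, with no call. Of the progenitor receptors, 0 were called in either direction in fetal liver, and Cd34, Csf1r, Cd33 and Cd27 were lower with Ly6d in the periphery. Cd34 in fetal liver was at 194 against 364 and 91.2 against 175 CPM, just short of the limit (-0.90 and -0.92).

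The pattern held in part when the cells were narrowed. Within FL6, the cluster that held most Ly6d-positive members of fetal liver, 8 of 24 pDC surface and effector genes were higher with Ly6d at E13.5 (median 0.72) and 14 of 26 at E14.5 (1.12); the cluster was built from the same genes, so these values are not independent of it. In the periphery that cluster left 15 Ly6d-negative members, too few for the 20 cells required. With members carrying transcripts of other lineages left out, a setting chosen after seeing the data, the counts were 13 of 23, 20 of 26 and 18 of 24.

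In fetal liver, where the stages shared a kit, members at E14.5 were compared with members at E13.5, each stage being 1 library. A different cluster held the largest share of members at each stage: FL5 held 37.4% and FL6 19.5% at E13.5, against 21.8% and 63.6% at E14.5. Cluster FL5 had Nrp1, Hpgd, Ms4a6c and Csf1r among its leading genes, and FL6 had Siglech, Ly6d and Lair1. Outside FL6 lay 589 members (80.5%) at E13.5 and 234 (36.4%) at E14.5. The part of this mix in the stage differences was not tested beyond the values within FL6 given below. Of 7780 genes, 91 were called higher at E14.5 (1.17%) and 23 lower (0.296%), and over the members of FL6 alone 53 were higher. The pDC surface and effector list held 14 of the higher genes among 24 measured (median 1.16), and none of its genes was lower. Since that list was chosen with earlier results of these data known, the count is a description. Upb1 was at 44.9 CPM at E14.5 and 7.0 at E13.5, Pltp at 28.2 and 3.13, Grn at 176 and 41.1, and Bst2 at 584 and 156, and all 4 were called. Cd7, an immunoglobulin family receptor of early lymphoid cells and pDCs, was at 237 and 75.7 and was higher at E14.5.

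**Figure D4:**
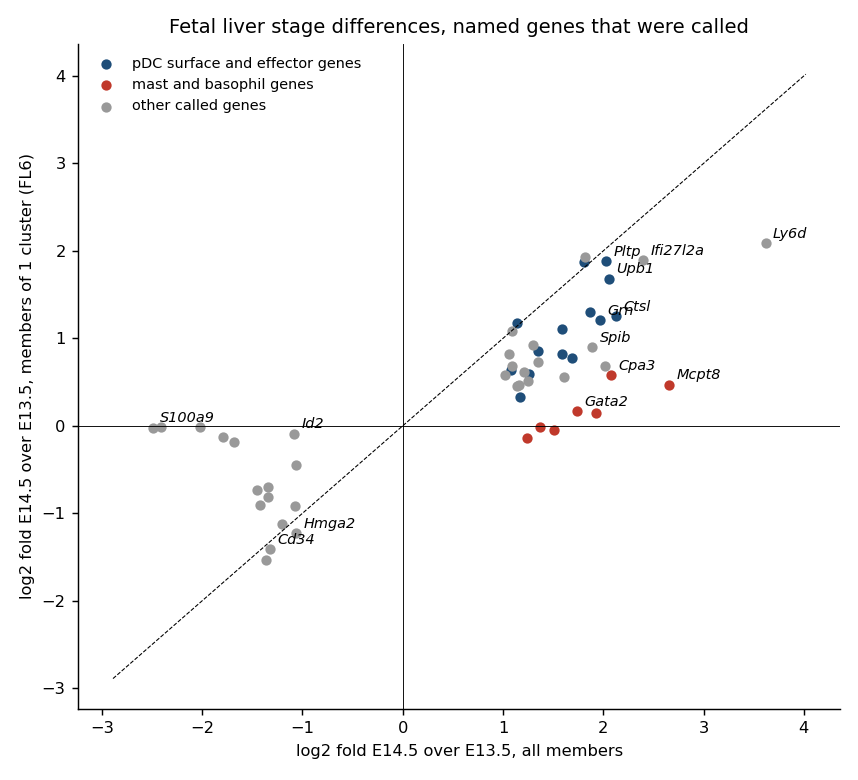
Log2 difference between E14.5 and E13.5 in fetal liver for the named genes that were called, over all members (horizontal axis) and over members of the cluster with most Ly6d-positive members (vertical axis); the dashed line marks equality. Ly6d lies at 3.62 and 2.09, the pDC surface and effector genes lie above 0 on both axes, and the mast and basophil genes lie between -0.14 and 0.58 on the vertical axis.

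Of the pDC transcription factors only Spib was called between the stages, at 38.9 CPM at E14.5 and 6.88 at E13.5 (1.89). Tcf4 at 384 and 208 CPM (0.87), Runx2 at 217 and 121 (0.82) and Irf7 at 21.4 and 13.3 (0.53) were not called, nor was any of the 10 nucleic acid sensing genes. Ifi27l2a, an interferon-induced mitochondrial protein gene, was higher at E14.5 (114 against 17.7 CPM), while Isg15 at 24.4 and 10.9 was not called. Blnk (49.3 against 16.3), Igkc (49.0 against 8.35) and Igll1, a surrogate light chain gene (14.4 against 0.491), were higher at E14.5, as was the homing receptor gene Cxcr4 (54.0 against 20.6). Cluster FL13, with Igll1 among its leading genes, held 65 kept cells at E13.5 and 2653 at E14.5. Cluster FL14, with Igkc among its leading genes, held 1 and 413. Free RNA was not removed, and its part in these differences was not tested.

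On the lower side at E14.5 stood Cd34 (135 against 346 CPM), the sialic acid binding lectin gene Cd33 (20.5 against 48.6), Id2 (118 against 256) and Hmga2 (243 against 514). Flt3 at 182 and 189 CPM, Csf1r at 93.0 and 146, and Kit at 10.6 and 23.5 were not called, and neither was any of 18 S phase (median 0.10) or 18 G2 and M phase genes (-0.01). When the comparison was limited to the 143 and 409 members of the 1 cluster named above, 10 of 26 pDC surface and effector genes were called higher (median 0.76), Spib fell short of the limit (0.90), and Id2 stood at -0.09. Ly6d kept its direction there, at 2.09 against 3.62 over all members.

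Transcripts of other lineages were measured in the same cells, and their part in the results above was not tested beyond the counts given here. In fetal liver 10 members (1.37%) at E13.5 and 25 (3.89%) at E14.5 carried transcripts of macrophages (3 or more UMIs of the complement genes C1qa, C1qb and C1qc), mast cells (3 or more of Mcpt8, Cpa3, Prss34 and Ms4a2) or neutrophils (5 or more of S100a8, S100a9, Ngp, Camp, Ltf and Elane). In the periphery at E13.5, 40 of 150 (26.7%, 19.8 to 34.5) did, all of them by C1q, against 7.82% of the other kept cells by C1q, and they held 98.3% of the members' C1q UMIs. Of them 18 had a Ly6d UMI and 22 did not. The monocyte and macrophage list summed to 1843 CPM in those members and 486 in the Flt3+ Il7r+ cells, and 11 of its 12 measured genes were higher (median 1.95); without the carriers 1 of 9 was higher and 5 were lower (-1.0). By Ly6d, 11 of 12 were lower in Ly6d-positive members (-1.90), and without the carriers 1 of 8 was higher and 1 lower (-0.35).

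In fetal liver the 10 carriers at E13.5 were 6 by mast, 3 by neutrophil and 1 by macrophage transcripts, and the 25 at E14.5 were 19, 2 and 4, with all 4 macrophage carriers in FL6 and with a Ly6d UMI. At E14.5 the mast and basophil list was higher than at E13.5 in 7 of 7 measured genes (median 1.74), led by Mcpt8 (32.1 against 0.860 CPM), and 19 members (2.95%) held 96.3% of the UMIs for Mcpt8, Cpa3, Prss34 and Ms4a2. Mast and basophil cells also took up 859 of 11702 kept barcodes there against 231 of 10641 at E13.5. At E13.5, 5 of 8 neutrophil genes were higher with Ly6d, but S100a9 (390 against 1.5 CPM) came to 99.4% from 1 cell. Red cell transcripts summed to 3.87, 2.93 and 23.3 CPM, with Slc4a1 at 0 in each. The B lineage list summed to 199 CPM in members against 208 in Flt3+ Il7r+ cells, 317 against 331 and 287 against 167, and in the periphery Pax5 and Pou2af1 had 0 UMIs.

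The 7 members of the periphery at E14.5 were too few for the comparisons. In 4 of them the Siglech UMIs were 21, 13, 9 and 2, the Irf8 UMIs 25, 18, 40 and 9, the Ly6d UMIs 146, 39, 17 and 41 and the Bst2 UMIs 16, 10, 12 and 2, and each of these cells also held Tcf4 (10, 9, 7 and 2 UMIs) and Cox6a2 (48, 4, 1 and 3). The other 3 held 1 Siglech UMI each, no Tcf4 and no Cox6a2, with Ly6d at 0, 0 and 1. The 7 cells held between 5140 and 19527 UMIs, and the deepest cell was among those 3. Macrophage C1q transcripts marked 2 of the 7.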

How the data were processed

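UMI counts per gene and cell barcode were deposited by the authors as 4 matrices, 1 per tissue and stage. Cell Ranger (version 3) and the mm10 build are named in the submitters' processing notes, with release 3.0.0 for fetal liver and 3.0.1 for the periphery per the file headers; for the gene models, the version was not given in the sources used here. Each library is 1 sample, so no test was run. Barcodes with fewer than 500 genes or over 10% mitochondrial UMIs were left out, which kept 10641 of 10783, 11702 of 12090, 4305 of 4531 and 4505 of 5008 barcodes in the order of the report. Doublets marked by Scrublet and free RNA stayed in.

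UMIs were summed over the cells of a group (at least 20 cells) and given as CPM with exact 95% Poisson intervals; shares have exact Clopper-Pearson intervals. Both cover counting error only. Log2 differences were taken after adding 5 CPM and centred on the median gene. A gene was measured at 10 or more CPM in either group with at least 10 UMIs, and called at a 2-fold difference with separate intervals. The rule genes, Flt3 and Il7r got no call where they chose the cells. On simulated Poisson counts, 4-fold raised genes were called in 100 of 100 cases in each of the 10 comparisons and 4-fold lowered genes in 97 to 100. Of unchanged genes, 9 of 6503 were called by Ly6d in the periphery and 0 in the others. The simulated counts had no spread between cells or libraries. They check the calling step and give no false call rate for these data. Clusters came from 2000 variable genes, 30 principal components, 15 neighbours and Leiden resolution 1.

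The genes named were the rule genes, Ly6d, list genes with their extremes, and up to 10 called genes in each direction, leaving out haemoglobin, mitochondrial, ribosomal and predicted genes. The members and the 26 lists of 325 genes were chosen with earlier results of these data known. Python 3.11.15, numpy 2.4.6, scipy 1.17.1, pandas 2.3.3, scanpy 1.11.5 and matplotlib 3.10.9 were used. Alternatives covered the Siglech and gene limits, thinning, doublets, equal weight per cell, the CPM added, centring, the member cluster and cells with other lineages' UMIs.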

Additional observations from a re-analysis of the deposited data

Results flagged for a closer look

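For 4 genes the called difference by Ly6d detection had opposite signs in different libraries. Ly6a, a surface antigen known as Sca-1, was higher in Ly6d-positive members in fetal liver at E13.5 (log2 difference 1.03) and E14.5 (1.5) and lower in the periphery at E13.5 (-1.05), where it turned to 0.51 with at least 2 Siglech UMIs required. Ccl5, a chemokine gene, was higher with Ly6d in fetal liver at E14.5 (2.31) and lower in the periphery (-1.16). There it turned to 1.35 with at least 2 Siglech UMIs and to 2.34 without the members carrying other lineages' UMIs, and 1 cell gave 68.0% of its UMIs among the Ly6d-positive members in fetal liver at E14.5. Lyz2, the lysozyme gene of myeloid cells, was higher in fetal liver at E13.5 (1.24, and -0.81 without the members carrying other lineages' UMIs), where 1 cell gave 78.6% of its UMIs, and lower in the periphery (-2.02). Trbc1, a T cell receptor constant gene, was higher in fetal liver at E14.5 (1.65), with 34.5% of its UMIs from 1 cell, and lower in the periphery (-1.48). Each contrast rests on 1 library per tissue, and the difference was not tested.

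In the periphery at E13.5, 4 barcodes left out by the gene or mitochondrial limit met the UMI rule; the other libraries had 0, 2 and 2 such barcodes.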

How the results depend on the processing

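Of 690 named gene differences, 690 kept direction and call with 1 CPM added in place of 5, 687 without centring, 669 with equal weight per cell, 668 without doublets and 628 with at least 2 Siglech UMIs, where 2 turned. Members of the member cluster alone left 466 unchanged, 103 short of the limit and 30 turned; members without other lineages' UMIs, chosen after seeing the data, left 587, 40 and 18. Counts of calls moved more. Below, the comparisons are named by the cells set against the members.

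With at least 2 Siglech UMIs the share of members was 3.70% and 4.21% in fetal liver and 2.72% in the periphery at E13.5. The counts became 74 higher against all other cells at fetal liver E13.5, 92 higher and 35 lower against Flt3+ Il7r+ cells there, 89 lower at E14.5 and 276 lower in the periphery, and by Ly6d 14 lower at E14.5 and 140 higher and 128 lower in the periphery. By Ly6d in the periphery Ccl5 turned to 1.35 and Ly6a to 0.51. Thinning gave shares of 3.22% and 4.66% in fetal liver. Leaving out doublets gave 19 lower by Ly6d at E14.5.

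Equal weight per cell gave 35, 83 and 275 lower against Flt3+ Il7r+ cells (fetal liver E13.5, E14.5, periphery) and 29, 35 and 395 lower by Ly6d. Adding 1 CPM, which lets low genes pass the fold limit, gave 67 higher and 71 lower against all other cells at E13.5, 77 higher and 40 lower, 101 lower and 259 lower against Flt3+ Il7r+ cells, 177 higher and 52 lower at E13.5 and 32 lower at E14.5 by Ly6d, and 42 lower between stages.

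The member cluster gave 199 higher and 135 lower, 396 and 265, and 483 lower against all other cells; 235 and 122, 393 and 194, and 388 lower against Flt3+ Il7r+ cells; 49 higher at E13.5 and 94 higher and 13 lower at E14.5 by Ly6d; and 53 higher between stages. Turned there were genes of other lineages. At fetal liver E13.5 these were Ngp -0.42 and Ms4a6c -0.59 (all other cells), S100a9 -1.09, Camp -0.12 and Ngp -0.01 (Flt3+ Il7r+ cells), and by Ly6d Lyz2 -0.58, Ms4a3 -0.24 and Lcn2, Ctsg, Camp, Ngp and Stfa3, each -0.03. At E14.5 they were Elane -1.09 (Flt3+ Il7r+ cells) and, by Ly6d, Elane -0.05 and F13a1 0.43. In the periphery they were F13a1 -0.06, Adgre1 -0.94, Fcgr1 -0.64, C1qb -1.26, C1qc -0.83 and C1qa -0.89 (all other cells), and Lyz2 -1.88, Adgre1 -0.67, Fcgr1 -0.34, C1qb -1.21, C1qc -0.65 and C1qa -0.66 (Flt3+ Il7r+ cells). Between stages Hdc was -0.14, Cd200r3 -0.05 and Ms4a2 -0.01.

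Without cells carrying other lineages' UMIs the share in the periphery at E13.5 was 2.56%, and the counts were 87 lower at E14.5 and 288 lower in the periphery against Flt3+ Il7r+ cells, and 18 and 156 lower by Ly6d. Turned were, by Ly6d at fetal liver E13.5, Lcn2 -0.03, Lyz2 -0.81, BC100530 -0.08 and Stfa3 -0.03. In the periphery they were F13a1 -1.42, Adgre1 -1.16 and Fcgr1 -0.59 (all other cells), Lyz2 -2.11, F13a1 -0.84, Adgre1 -0.88 and Fcgr1 -0.28 (Flt3+ Il7r+ cells), and Ccl5 2.34, Pf4 0.48, Cxcl2 1.01 and Folr2 0.26 (by Ly6d). Between stages Hdc was -0.29, Ctsg -0.35 and Cd200r3 -0.08. Genes that define those cells got no value in that setting. Both settings leave fewer cells, and the second removes cells with those UMIs by construction; otherwise the cause was not tested.

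No paired analysis was possible because each group was 1 library. With 1 library per group, no difference has a replicate check. At the depth of these cells a member with 1 Siglech UMI cannot be told singly from a cell that caught free RNA, a Ly6d share counts cells with a captured UMI, and the 7 members of the periphery at E14.5 allow no gene comparison. The Ly6d split within the member cluster of the periphery had too few cells for a value.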
